A study of Mus musculus with 6 samples.

Results

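DP and C-LTMR, a pair of subsets of unmyelinated sensory neurons from mouse dorsal root ganglia (DRG), were compared over 12841 of the 23029 genes in a table of RPKM values (reads per kilobase of transcript per M reads). The comparison used 4 of the series' 6 libraries, 2 per subset. A gene entered it with an RPKM of at least 0.3 in both libraries of at least 1 of the subsets. Of the genes tested, 11762 reached that level in both subsets, 535 in DP only and 544 in C-LTMR only. A smaller table of TMM-normalized counts (counts scaled to a common library size) holds 6590 of them. The other 6251 had a median of 2.02 RPKM, so the RPKM table adds mainly genes of low level. Beside the minimum, Eme1 was just inside with a value of 0.30002 and Aldh1l1 just outside with 0.29981 in the lower library of their higher subset. Between 0.2 and 0.3 RPKM lay 536 genes, and 397 lay between 0.3 and 0.4.

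All animals carried GINIP+/mCherry, that is, 1 copy of the gene for GINIP, a partner of inhibitory G proteins in neurons, held a red fluorescent reporter. DP cells were positive for the reporter and for isolectin B4 (IB4), a plant lectin that binds sugar chains on many nociceptors without peptide transmitters. They are labelled as neurons that express the receptor Mrgprd. C-LTMR cells had the reporter without IB4, and DN cells had neither. Cells were sorted by flow cytometry into lysis buffer, 50 ng of total RNA was amplified, and TruSeq libraries were sequenced. No treatment is given, and the sources used here do not state the age, sex or number of animals. Replicates are numbered, but the labels do not say that they came from separate animals, and the p-values below cover the spread among these samples alone, which may be technical.

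Mrgprd neurons end in the epidermis as free nerve endings and respond to painful mechanical and some chemical stimuli. C-fibre low-threshold mechanoreceptors (C-LTMRs) end around hair follicles and respond to gentle stroking of the skin. Both arise from neurons that depend on the transcription factor Runx1 and come to express the receptor tyrosine kinase Ret, and both lack the thick myelin of touch receptors.

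Depth was estimated roughly from short olfactory receptor genes, with the most common value of RPKM times gene length taken as 1 read. That value was held by 5 of 14 such genes in DP replicate 1, 3 of 13 in DP replicate 2 and 6 of 14 in each C-LTMR library. The estimates were 42.0 and 38.3 M reads in DP and 34.2 and 32.3 M reads in C-LTMR. At these depths 0.3 RPKM stands for about 9.68 to 12.6 reads per kilobase. Across the genes tested, libraries of 1 subset correlated with r = 0.9945 (DP) and 0.9924 (C-LTMR), and libraries of different subsets with r = 0.922 to 0.930. Genes are not independent replicates. The GINIP gene (listed as N28178, chr4:42917251-42941607) had 121 and 129.9 RPKM in DP, 141 and 149.5 in C-LTMR and 18.6 and 13.8 in DN. Markers of other cells were present in both subsets. The summed RPKM of 22 satellite glia and Schwann cell genes was 1332 and 1834 in DP, 2446 and 3353 in C-LTMR and 9219 and 19021 in DN. Abundant genes given below, such as Pmp22 and Apoe, weigh most in that sum. By gene, both DP libraries were higher for 9 of the 22 and both C-LTMR libraries for 5. Over all genes tested, these shares were 30.5% and 42.1%. In these bulk samples, fewer cells of a type and less RNA per cell cannot be told apart.

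The 4 genes used here to check the labels followed them, and they are shown first. Mrgprd, a Mas-related G protein-coupled receptor (chr7:145314835-145324059), was at 219.8 and 277 RPKM in DP and 1.32 and 2.01 in C-LTMR, a mean 149-fold higher in DP (log2 difference 7.16, SE 0.21, adjusted p = 3.46e-05). Its DP libraries lay far above the others, with 0.345 and 0.953 in DN. Lpar3, a receptor for lysophosphatidic acid (chr3:146220961-146286214), was at 190.4 and 186 RPKM in DP and 2.48 in both libraries of C-LTMR (log2 difference 6.19, SE 0.065, adjusted p = 5.13e-06). Th, tyrosine hydroxylase, which starts catecholamine synthesis (chr7:142892776-142899966), was at 48.8 and 61.7 RPKM in DP and 1017 and 1038 in C-LTMR, a mean 18.6-fold higher in C-LTMR (log2 difference -4.22, SE 0.12, adjusted p = 3.33e-05). Slc17a8, the vesicular glutamate transporter VGLUT3 (chr10:89574020-89621249), was at 1.12 and 1.31 RPKM in DP and 17.1 and 19.1 in C-LTMR (log2 difference -3.8, SE 0.12, adjusted p = 3.88e-05). No library of DP overlapped one of C-LTMR for any of the 4 genes. Here and below, a difference is DP minus C-LTMR on the log2(RPKM + 0.1) scale with the standard error (SE) of limma's fit, and p is limma's, adjusted by Benjamini-Hochberg over the 12841 genes. A gene was called at an adjusted p under 0.05 and an absolute difference of at least 1.

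The sequence before the start of each subset's leading marker is printed with matches to a pair of known elements marked. RefSeq's windows (GRCm38.p6) are cut to the 250 bases before the start that RefSeq annotates, 5′ to 3′ on the gene's strand. Mrgprd's window is chr7:145314585-145314834 on the plus strand and Th's is chr7:142899996-142900245 on the minus strand. Gene positions in the text are those of the deposited table, in which Th starts 29 bases downstream of its RefSeq start (142899995), while Mrgprd starts at the same base in both. Capitals mark matches on either strand to TGACGTCA, the cyclic AMP response element (CRE), and to TGANTCA, the AP-1 element.
Mrgprd: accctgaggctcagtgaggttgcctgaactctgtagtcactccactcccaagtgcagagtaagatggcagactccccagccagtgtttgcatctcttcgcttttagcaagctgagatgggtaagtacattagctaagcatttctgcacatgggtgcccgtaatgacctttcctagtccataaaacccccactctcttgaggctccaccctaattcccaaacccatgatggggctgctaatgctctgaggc
Th: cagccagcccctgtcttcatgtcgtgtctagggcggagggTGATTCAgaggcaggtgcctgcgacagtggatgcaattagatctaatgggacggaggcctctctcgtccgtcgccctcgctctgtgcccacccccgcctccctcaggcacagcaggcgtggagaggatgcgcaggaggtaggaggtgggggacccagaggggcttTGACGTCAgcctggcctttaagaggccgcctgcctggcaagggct
Th's window holds 1 CRE match, which begins 45 bases before the RefSeq start, and 1 AP-1 match, which begins 210 bases before it. Mrgprd's window holds neither run of letters. Over the 13081 windows of the 10199 tested genes that RefSeq's table holds, 2.61% had a CRE match and 4.24% an AP-1 match. A match is a description of letters and was not tested as a site.

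Between the subsets, 2119 of the 12841 genes tested (16.5%) were called. Of these, 887 (6.91%) were higher in DP and 1232 (9.59%) in C-LTMR. Among the 11762 genes at 0.3 RPKM or more in all 4 libraries, 12.4% were called, 569 toward DP and 894 toward C-LTMR. The split by direction depended on the scaling. Rescaling the libraries to 21 pan-sensory-neuron genes gave 1174 calls toward DP and 968 toward C-LTMR, so DP's share of the calls was 54.8% in place of 41.9%. That rescaling moved the median difference of all genes from -0.0632 to 0.174, and differences below are given on the deposited scale. The pseudocount also mattered for low genes. With 1 in place of 0.1 added to each RPKM, 468 genes were higher in DP and 736 in C-LTMR, and 1203 of the 2119 calls were kept. Of the genes named below, Adra1d, Adra2b, Bnc1, Cd4, Cysltr2, Gria2, Gria4, Grik2, Grin2c, Grin3a, Grp, Cacng3, Hoxa2, Hoxb3, Hs3st3a1, Hs3st3b1, Il31ra, Irx6, Itgb2, Kcna3, Mrgprb4, Trpm3, Ly6c1, Elane and F830002L21Rik were not called at that setting. In 72.5% of the genes tested, the 2 libraries of one subset both lay above the 2 of the other. For called genes such a lack of overlap largely follows from the call. Where it is stated in the text, it describes the values and adds no support. The counts of gene lists below include members that reached 0.3 RPKM in 1 subset only, and stand beside shares of 6.91% toward DP and 9.59% toward C-LTMR over all genes tested.

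**Figure D1:**
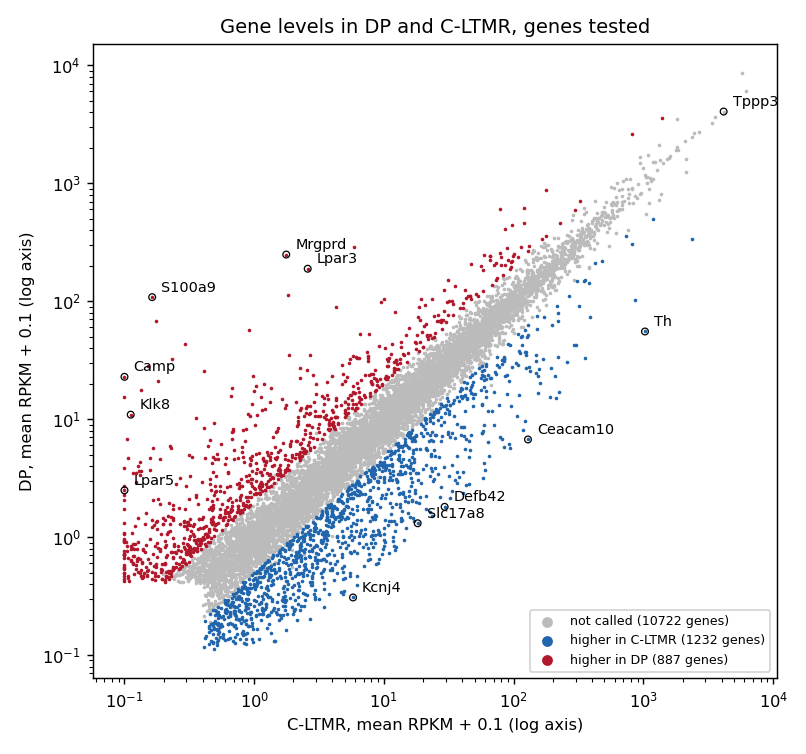
Mean RPKM + 0.1 of each gene tested in C-LTMR (horizontal, log axis) and DP (vertical, log axis), 2 libraries each. Red points are the 887 genes called higher in DP, blue points the 1232 called higher in C-LTMR, grey points the rest, and the cloud reaches farther from the diagonal on the DP side.

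The largest differences were toward DP, while the more numerous moderate ones were toward C-LTMR. Differences of at least 2 (log2) were called for 306 genes toward DP and 464 toward C-LTMR. At 4 or more the counts were 51 and 9, and at 5 or more 21 and 0. In both C-LTMR libraries 30 genes tested were listed at 0, and in both DP libraries 0 genes were. All 30 were called higher in DP, which their entry through DP alone made likely, and all 30 were absent from the TMM-normalized table. They include the lysophosphatidic acid receptor Lpar5, with 2.57 and 2.22 RPKM in DP, and 6 genes of the lists of myeloid genes described below. A difference for such a gene depends on the added 0.1 and is given as a level instead.

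The residual level of the most different genes was not the same on both sides. For the 50 genes with the largest differences toward DP, the C-LTMR mean was between 0% and 5.50% of the DP mean, with a median of 0.881%. For the 50 largest toward C-LTMR, the DP mean was between 3.67% and 8.27% of the C-LTMR mean, with a median of 6.27%, and none was listed at 0 in DP. These shares describe genes chosen for their difference and carry no test. They restate the sizes of those differences, 4.01 to 9.49 (log2) toward DP and 3.59 to 4.27 toward C-LTMR. In 29 of the 50 genes toward C-LTMR, DP also lay above DN, and in 10 of the 50 toward DP, C-LTMR did. Of all genes called, DN had the lowest mean in 271 of 1232 toward C-LTMR and 216 of 887 toward DP. The share over all genes tested was not counted. Th had a DP level of 5.38% of C-LTMR's and a DN level of 31.7 and 14.2 RPKM.

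**Figure D2:**
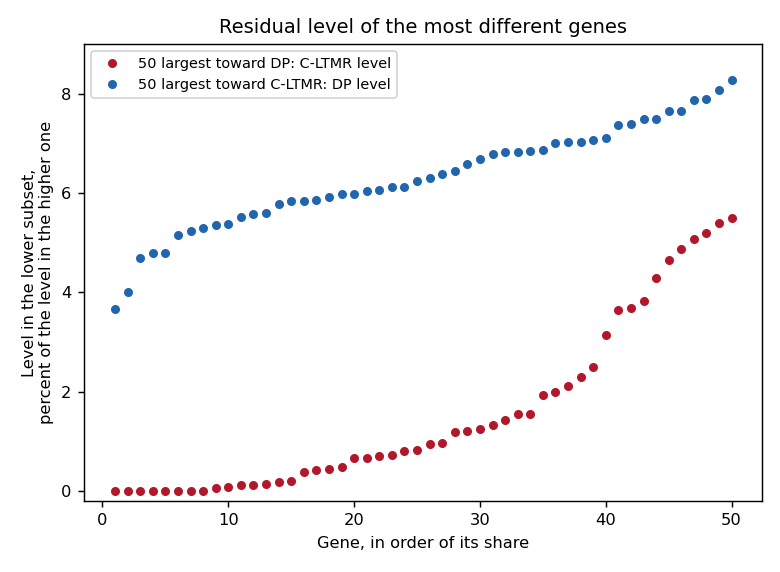
Level in the lower subset as a percent of the level in the higher subset (vertical) for the 50 genes with the largest difference in each direction, in order of that share (horizontal). Blue points (DP level of C-LTMR genes) lie between 3.67% and 8.27%, and red points (C-LTMR level of DP genes) between 0% and 5.50%.

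DN had the highest mean of the 3 subsets for part of the called genes. The matching share over all genes tested was not counted. Of the 887 genes higher in DP, the mean was highest in DP for 541 and in DN for 346 (39%). Of the 1232 genes higher in C-LTMR, it was highest in C-LTMR for 826 and in DN for 406 (33%).

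Genes absent from the TMM-normalized table made up most of the calls. Of these 6251 genes, 1272 (20.3%) were called, 506 toward DP (8.09%) and 766 toward C-LTMR (12.3%). The share called fell with level, from 31.7% of genes under 1 RPKM to 8.83% of genes at 100 RPKM or more. Many of the former entered through 1 subset, where a difference was built into their entry.

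Toward C-LTMR, the largest such difference was in Kcnj4, an inward rectifier potassium channel (chr15:79483714-79505241), at 0.21 and 0.206 RPKM in DP and 4.77 and 6.58 in C-LTMR (log2 difference -4.21, SE 0.20, adjusted p = 7.87e-05). Its DN libraries were at 1.1 and 0.427 RPKM, so C-LTMR stood apart from both other subsets. Defb42, a beta-defensin, was at 1.23 and 2.18 RPKM in DP and 26.2 and 32.3 in C-LTMR (log2 difference -4.07, SE 0.26, adjusted p = 0.000207), and Spink2, a serine protease inhibitor, was at 2.32 and 3.0 RPKM in DP and 40.9 and 44.3 in C-LTMR (log2 difference -3.96, SE 0.13, adjusted p = 4.16e-05). Wfdc10, of the family of whey acidic protein-type inhibitors, was at 0.259 and 0.227 RPKM against 4.69 and 4.38. These 3 encode small secreted proteins known mainly from epithelia and the male reproductive tract. Gabra3, a subunit of GABA-A receptors, was at 0.249 and 0.252 RPKM against 4.97 and 4.61 (log2 difference -3.8, SE 0.14, adjusted p = 5.02e-05). Gnb3, a G protein beta subunit known from retinal cones and taste cells, was at 0.535 and 0.573 RPKM against 9.73 and 8.34. Wnt11, a secreted Wnt ligand, was at 0.46 and 0.524 RPKM against 8.42 and 8.64, Smyd1, a methyltransferase known from muscle, at 0.207 and 0.248 RPKM against 4.54 and 4.94, and Tgm5, a transglutaminase of the epidermis, at 0.122 and 0.193 RPKM against 3.53 and 3.17. In none of the 9 genes did libraries of the 2 subsets overlap, and their adjusted p ran from 4.02e-05 to 0.000207. The other 3 of the 12 largest were predicted or uncharacterised genes (Gm13446, BC089491 and E130309F12Rik), with differences of -3.73 to -3.98.

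Among genes that the TMM-normalized table also holds, the largest differences in this direction after that of Ceacam10 were those of Th, Osta, Zfp521, C1ql4, Cd34, Gpx2 and Bmp15. Values of Th stand above and those of C1ql4 below. Ceacam10 is a carcinoembryonic antigen-related protein (5.81 and 7.44 RPKM against 125 and 132, difference -4.27), Osta an organic solute transporter subunit (2.92 and 3.23 RPKM against 56.8 and 59.1, -4.19), and Zfp521 a zinc finger transcription factor (1.91 and 2.58 RPKM against 37.7 and 43.7, -4.13). Cd34 is a surface protein of endothelial and blood progenitor cells (5.33 and 5.82 RPKM against 102 and 84.3, -4.03) and Gpx2 a glutathione peroxidase (2.32 and 3.16 RPKM against 42.1 and 48.4, -4.01). Bmp15, a growth factor best known from the oocyte, was at 0.535 and 0.818 RPKM in DP and 12.7 and 11.5 in C-LTMR (log2 difference -3.99, SE 0.20, adjusted p = 9.16e-05). In DN, Ceacam10, Osta, Gpx2 and Bmp15 were under 1 RPKM in both libraries, Zfp521 was at 2.93 and 2.34 RPKM and Cd34 at 24.9 and 40.3 RPKM.

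Toward DP, the genes of largest difference outside the TMM-normalized table fell into 2 kinds. Klk8, a secreted serine protease also called neuropsin (chr7:43797577-43803822), was at 10.5 and 11.1 RPKM in DP and 0 and 0.0234 in C-LTMR (log2 difference 6.62, SE 0.18, adjusted p = 3.17e-05), with 0.582 and 0.656 in DN. Fam167a was at 5.57 and 5.7 RPKM in DP and 0.0897 and 0.0439 in C-LTMR (log2 difference 5.12, SE 0.20, adjusted p = 5.02e-05). Nupr1, a small nuclear protein induced by stress, was at 30.8 and 20.5 RPKM in DP and 0.327 and 0.297 in C-LTMR (log2 difference 5.94, SE 0.21, adjusted p = 4.48e-05), and DN held it at a like level, 15.3 and 22.6. Of the other 9 genes, 6 are granule or secreted proteins of neutrophils and macrophages, such as S100a8, Camp, Lcn2 and Ltf, and 3 (Ly6c2, Cd52 and Tyrobp) are surface or adaptor proteins of leukocytes.

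**Figure D3:**
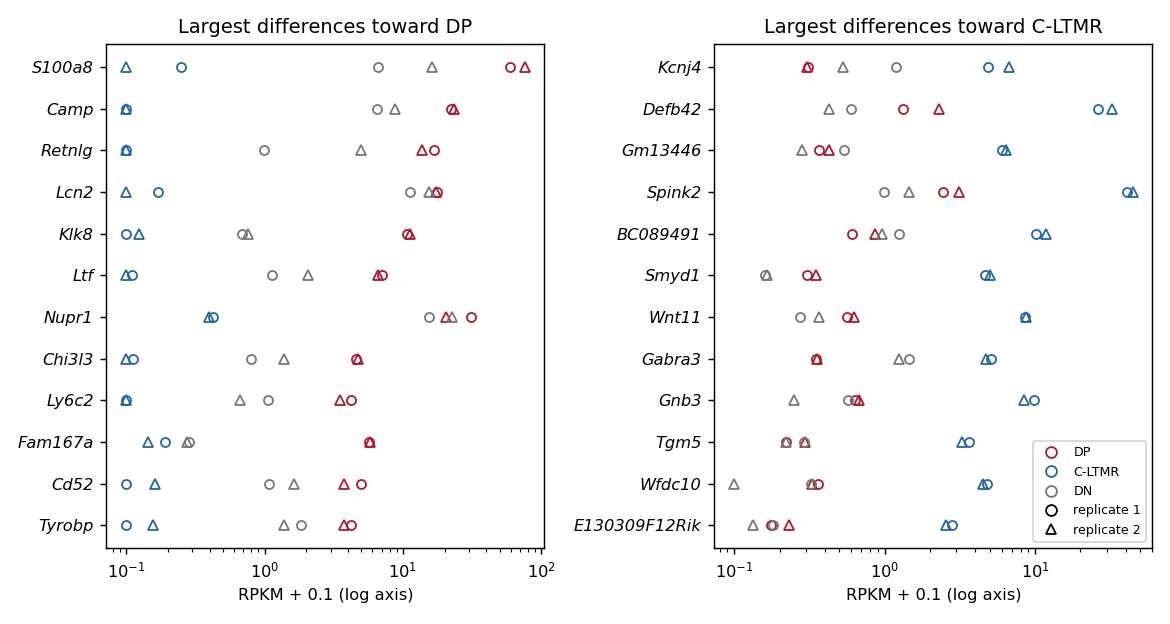
RPKM + 0.1 (horizontal, log axis) in each of the 6 libraries for the 12 genes of largest difference toward DP (left) and toward C-LTMR (right) among genes absent from the TMM-normalized table. Red is DP, blue C-LTMR and grey DN, with a circle for replicate 1 and a triangle for replicate 2, and red and blue symbols do not overlap for any gene.

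Genes known from neutrophils and other myeloid cells were higher in DP. Neutrophils fill their granules during maturation with antimicrobial proteins, and macrophages are the resident immune cells of the ganglion. Of 23 neutrophil and myeloid granule genes in the table, 18 were tested, 16 were called higher in DP and 0 lower (88.9% called, against 16.5% of all genes). Their median difference was 4.64, against -0.0632 over all genes, and 15 of the 18 were absent from the TMM-normalized table. Only 3 of the 18 reached 0.3 RPKM in both subsets, and 1 of these was called, so the count and median describe them and support nothing. The calprotectin subunit S100a9 was at 102 and 115 RPKM in DP and 0 and 0.127 in C-LTMR (log2 difference 9.49, SE 0.37, adjusted p = 5.17e-05). Its partner S100a8 was at 59.4 and 75.6 RPKM in DP and 0.149 and 0 in C-LTMR and the cathelicidin Camp at 22.3 and 23.2 RPKM in DP and 0 in both libraries of C-LTMR. Without 1 of the C-LTMR libraries the difference of S100a9 ranged from 8.9 to 10.08 and that of S100a8 from 8.07 to 9.39, since 1 of the 2 libraries was listed at 0. Ngp, a granule protein of neutrophil precursors, was at 27.3 and 29.1 RPKM against 0.0252 and 0.080, Lcn2, which binds bacterial siderophores, at 17.5 and 17.4 RPKM against 0.0685 and 0, and Retnlg, a resistin-like protein, at 16.8 and 13.6 RPKM against 0 and 0.

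Summed over the list's 23 genes, the level was 321 and 341 RPKM in DP, 15.4 and 15.2 in C-LTMR and 52.6 and 95.3 in DN. In C-LTMR 6 of the 23 genes were listed at 0 in both libraries, and in DP 0 were. Both DP libraries lay above both C-LTMR libraries for 22 of the 23, against 30.5% of all genes tested. The 23 include 5 genes under the minimum level, and this count too only describes them. Macrophage markers went the same way, with 8 of 11 tested members higher in DP and 0 in C-LTMR (19 in the table). Of these 11, only 3 reached 0.3 RPKM in both subsets and 0 of the 3 were called, so that count too supports nothing. Their sum was 54.6 and 51.3 RPKM in DP, 6.38 and 10.7 in C-LTMR and 44.8 and 69.8 in DN. Lyz2, lysozyme of myeloid cells, was at 34.3 and 29.8 RPKM in DP and 0.233 and 0.0302 in C-LTMR (leave-one-out range 6.59 to 7.94), and Fcer1g, the common Fc receptor chain, was at 3.59 and 3.19 RPKM against 0.0444 and 0. Genes that present antigen on class II molecules, H2-Aa (4.71 and 2.39 RPKM against 0 and 0.0579) and Cd74 (4.35 and 2.25 RPKM against 0.0208 and 0.0424), the cytokine Il1b (3.34 and 2.33 RPKM against 0.022 and 0.0233) and the leukocyte integrin Itgb2 (0.689 and 0.638 RPKM against 0 and 0.0108) were also called higher in DP. Of the 12 largest differences toward DP among all genes, 7 belong to these lists, and of the 50 largest, 13 do. In these bulk libraries, myeloid cells among the sorted cells and expression of these genes by neurons cannot be told apart, and the part of such cells in other differences toward DP was not tested. Only 2 lymphocyte markers of 17 in the table were tested, Cd4 (0.0307 and 0.0337 RPKM against 0.603 and 0.58) and Lck (0.775 and 1.02 RPKM against 4.84 and 4.57), and both were higher in C-LTMR. The 15 others were under the minimum level. Over all 17, both DP libraries were higher for 5 and both C-LTMR libraries for 3, against 30.5% and 42.1% of all genes tested.

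Markers of sensory neuron subtypes separated DP from C-LTMR, with some crossing over. Of 20 Mrgprd nociceptor markers tested, 16 were higher in DP and 0 in C-LTMR (median 2.19). These lists were put together with results of these data known and are no independent evidence of direction. The angiotensin receptor Agtr1a was at 41.4 and 44.9 RPKM in DP and 0.141 and 0.244 in C-LTMR (log2 difference 7.23, SE 0.19, adjusted p = 3.17e-05), while its paralog Agtr1b went the other way, at 0.863 and 1.26 RPKM against 7.71 and 6.34 (log2 difference -2.63, SE 0.21, adjusted p = 0.000378). Otoa, otoancorin, was at 21.3 and 20.4 RPKM against 0.0588 and 0.101. Of 18 C-LTMR markers, 11 were higher in C-LTMR and 2 in DP (median -3.05). Those 2 were the retinoic acid-degrading enzyme Cyp26b1 (1.34 and 2.24 RPKM against 0.163 and 0.108, 2.97) and the zinc finger gene Bnc2 (5.94 and 6.93 RPKM against 1.82 and 2.27, 1.61). Genes shared by both lineages were not called: the GDNF family receptor Gfra2 was at 139 and 134 RPKM against 180.2 and 187 (difference -0.43), Ret at 70.2 and 67.2 RPKM against 100.1 and 96.8 (-0.52) and Runx1 at 51.3 and 55.2 RPKM against 40.3 and 41.3 (0.38).

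Itch-neuron markers were divided between the subsets. Itch is carried by neurons that express histamine, Mas-related, cytokine or natriuretic peptide genes, and a pair of populations is usually told apart. Of 13 markers tested, 7 were higher in DP and 4 in C-LTMR, and with a pseudocount of 1 the counts were 4 and 4. Of the 11 called, 9 were absent from the TMM-normalized table. The chloroquine receptor Mrgpra3 was at 17.5 and 16.2 RPKM in DP and 259 and 190.3 in C-LTMR (log2 difference -3.71, SE 0.15, adjusted p = 5.54e-05), with 0 and 0.12 in DN. The histamine receptor Hrh1 was at 0.478 and 0.416 RPKM against 4.08 and 3.67 (-2.86) and the oncostatin M receptor Osmr at 2.27 and 2.41 RPKM against 7.31 and 5.3 (-1.38), both higher in C-LTMR. Mrgprx1 was at 0.571 and 1.48 RPKM against 5.41 and 6.59, with a difference of -3.18 to -1.94 as single libraries were left out. Other markers of the list were higher in DP, although Osmr, which pairs with the interleukin 31 receptor, was not. The natriuretic peptide Nppb was at 4.78 and 3.87 RPKM against 0.824 and 1.46 (1.87), the interleukin 31 receptor Il31ra at 1.76 and 1.45 RPKM against 0.468 and 0.513 (1.53), the leukotriene receptor Cysltr2 at 1.13 and 0.806 RPKM against 0.0973 and 0.0873 (2.46) and the phospholipase Plcb3 at 73.1 and 73.3 RPKM against 19.4 and 16.8 (2.02). Neurotensin (Nts) and somatostatin (Sst) were called, but their libraries differed within a subset. Nts was at 17.6 and 7.02 RPKM against 2.71 and 0.551 and lost its call without either DP library (adjusted p up to 0.148). Sst was at 4.44 and 4.49 RPKM against 1.61 and 0.517 and did likewise (up to 0.0927). Il31ra, Nppb and Plcb3 were picked out after their values were seen.

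Of 9 Mas-related receptors tested, 5 were higher in DP and 2 in C-LTMR. Mrgprb5 was at 22.3 and 17.2 RPKM against 2.92 and 2.86 (log2 difference 2.72, SE 0.14, adjusted p = 9.93e-05), Mrgpra2a at 10.9 and 6.85 RPKM against 2.67 and 2.27 (1.77) and Mrgprb4, known from neurons that detect stroking, at 0.638 and 0.375 RPKM against 0 and 0.0321 (2.36). Mrgpre (10.1 and 9.6 RPKM against 16.9 and 15.8) and Mrgpra1 (0.879 and 0.783 RPKM against 0.716 and 0.615) were not called. Many of these genes have near-identical copies, as do Agtr1a and Agtr1b, and the sources used here do not state how reads were divided among them. Of 15 markers of myelinated mechanoreceptors and proprioceptors, 6 were higher in C-LTMR and 0 in DP. Necab2, a neuronal calcium-binding protein (2.59 and 3.36 RPKM against 31.1 and 39.6), Etv1 (4.6 and 4.98 RPKM against 24.6 and 24.8) and the neurotrophin receptor Ntrk3 (6.85 and 8.36 RPKM against 18.2 and 24.7) were among the 6. The neurofilaments Nefh (43 and 49.4 RPKM against 49.7 and 30.7) and Nefm (287 and 286 RPKM against 201 and 149) were not called.

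Ion channels were split by family. Voltage-gated sodium channels drive the action potential. Of 12 sodium channel genes tested, 8 were higher in C-LTMR and 1 in DP, with a median difference of -1.74. Scn1a was at 0.454 and 0.823 RPKM in DP and 5.36 and 5.66 in C-LTMR (log2 difference -2.97, SE 0.25, adjusted p = 0.000532) and Scn3a at 0.246 and 0.325 RPKM against 2.01 and 2.2 (-2.52). Scn3a, absent from the TMM-normalized table, was low in DP in both libraries. The nociceptor channel Scn11a was the member higher in DP (223 and 246 RPKM against 100.4 and 116, 1.12), and Scn10a (131 and 139 RPKM against 68.8 and 73.1, 0.93) and Scn9a (22.4 and 27.9 RPKM against 27.8 and 30.9, -0.23) were not called.

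Potassium channels set the resting potential and repolarise the membrane. Of 36 voltage-gated subunits tested, 13 were higher in C-LTMR and 4 in DP, and after rescaling to pan-sensory-neuron genes 8 and 7. Kcnq1 was at 0.0719 and 0.126 RPKM against 1.25 and 1.65 (-2.96) and Kcna3 at 0.0196 and 0.0265 RPKM against 0.724 and 0.789 (-2.8), while Kcnq5 was at 1.17 and 1.55 RPKM against 0.0669 and 0.129 (2.89) and Kcnf1 at 2.2 and 2.84 RPKM against 0.598 and 0.737 (1.76). So 1 member of the Kcnq family was higher in each subset. Of 23 leak, inward rectifier and calcium-activated channels, 7 were higher in DP and 4 in C-LTMR. Kcnk12 was at 22.1 and 22.3 RPKM against 2.05 and 2.23 (3.32), the ATP-sensitive pore Kcnj11 at 3.32 and 4.02 RPKM against 0.93 and 1.24 (1.68) and the BK channel Kcnma1 at 9.42 and 11.8 RPKM against 2.93 and 3.34 (1.72), all higher in DP.

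Of 16 voltage-gated calcium channel subunits, 4 were higher in C-LTMR and 1 in DP. The T-type channels Cacna1h (0.506 and 0.601 RPKM against 6.41 and 8.88, -3.55) and Cacna1i (0.587 and 0.853 RPKM against 10.5 and 14.2, -3.93), which open near rest, were both higher in C-LTMR. The DP member, Cacng3 (0.359 and 0.451 RPKM against 0.0383 and 0.142), lost its call without either DP library (adjusted p up to 0.0966). TRP channels, which detect heat, chemicals and osmotic change, went toward DP in 5 of 18 cases and toward C-LTMR in 1. Trpc6 (21.1 and 20.2 RPKM against 3.93 and 3.2, 2.51), the irritant receptor Trpa1 (21.3 and 18 RPKM against 4.96 and 4.28, 2.06) and Trpm3 (0.907 and 0.934 RPKM against 0.164 and 0.273, 1.7) were higher in DP. Trpv4, which responds to osmotic and mechanical stimuli, was the one higher in C-LTMR, at 0.197 and 0.235 RPKM in DP and 1.58 and 1.65 in C-LTMR (log2 difference -2.44, SE 0.18, adjusted p = 0.000287).

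Of 24 purinergic, acid-sensing, HCN and mechanosensitive channel genes, 8 were higher in C-LTMR and 3 in DP. ATP-gated subunits were divided, with P2rx3 at 156 and 145 RPKM against 32.1 and 29.7 (2.28) and P2rx2, with which it assembles, at 0.849 and 0.967 RPKM against 6.44 and 5.03 (-2.52). P2rx5 was at 0.852 and 0.66 RPKM against 3.47 and 2.33 (-1.79). The acid-sensing channel Accn2 (ASIC1) was at 0.506 and 0.821 RPKM against 5.24 and 6.21 (-2.96), whereas Accn1 (ASIC2) was at 60.3 and 60.9 RPKM against 63.1 and 63.3 and was not called (-0.06). Of 18 GABA-A, glycine and nicotinic subunits tested, 7 were higher in C-LTMR and 4 in DP. Among the 13 at 0.3 RPKM or more in both subsets the counts were 5 and 1. Beside Gabra3, the beta subunits Gabrb1 (0.949 and 0.995 RPKM against 9.29 and 10.7, -3.23) and Gabrb2 (0.148 and 0.135 RPKM against 1.37 and 1.21, -2.53) were higher in C-LTMR. Nicotinic subunits went both ways, Chrna4 toward C-LTMR (0.541 and 0.694 RPKM against 8.28 and 10.9, -3.75) and Chrna6 toward DP (32.5 and 35.2 RPKM against 6.85 and 5.2, 2.48).

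Subunits of ionotropic glutamate receptors were called in both directions, with 5 of 13 higher in C-LTMR and 4 in DP, and 1 and 2 with a pseudocount of 1. AMPA subunits Gria1 (5.79 and 7.04 RPKM against 1.88 and 2.12, 1.63) and Gria2 (2.4 and 2.8 RPKM against 1.02 and 1.06, 1.24) were higher in DP. Gria3 (0.537 and 0.588 RPKM against 2.27 and 2.48, -1.9) and Gria4 (0.665 and 0.613 RPKM against 2.12 and 1.99, -1.55) were higher in C-LTMR. All 4 AMPA subunits were thus called, 2 in each direction, though Gria2 and Gria4 were not called with a pseudocount of 1. The kainate subunits Grik1 (296 and 269 RPKM against 94 and 84.7) and Grik2 (0.668 and 0.663 RPKM against 0.048 and 0.125) were higher in DP, and the NMDA subunits Grin3a (0.191 and 0.205 RPKM against 1.11 and 1.03) and Grin2c (0.0388 and 0.0213 RPKM against 0.37 and 0.392) in C-LTMR. Grin1, the subunit every NMDA receptor needs, was at 7.4 and 7.6 RPKM against 8.73 and 11.1 and was not called (-0.39).

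G protein-coupled receptors for amines and acetylcholine were mostly called, 8 of 16 higher in C-LTMR and 4 in DP. The serotonin receptor Htr1d, the target of triptans, was at 0.678 and 0.964 RPKM in DP and 10.3 and 12.9 in C-LTMR (log2 difference -3.68, SE 0.20, adjusted p = 0.000114), and Htr4 was at 4.02 and 4.37 RPKM against 0.703 and 0.77 (2.36). The histamine receptor Hrh3 was at 0.684 and 0.912 RPKM against 7.81 and 7.88 (-3.16), so Hrh1 and Hrh3 were both higher in C-LTMR. Adrenergic receptors were divided, Adra1d toward C-LTMR (0.00486 and 0.0551 RPKM against 0.836 and 0.926, -2.94) and Adra2b toward DP (1.2 and 1.19 RPKM against 0.0816 and 0.117, 2.7). The GABA-B subunit Gabbr1 (94.7 and 100.5 RPKM against 90.05 and 103, 0.02) was not called.

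Peptide receptors and precursors were called in both directions. Of 25 peptide receptors tested, 10 were higher in C-LTMR and 5 in DP, but among the 16 at 0.3 RPKM or more in both subsets 8 and 1. Neuromedin U (Nmu), a peptide ligand, was at 0.298 and 0.401 RPKM in DP and 4.55 and 5.23 in C-LTMR (log2 difference -3.48, SE 0.18, adjusted p = 0.000102), and its receptor Nmur1 at 1.24 and 1.28 RPKM in DP and 13.1 and 13.9 in C-LTMR (log2 difference -3.33, SE 0.10, adjusted p = 3.46e-05). Both ligand and receptor were thus higher in C-LTMR in both libraries, a pair set side by side after its values were seen. Cckar, the cholecystokinin A receptor, was at 6.22 and 5.96 RPKM against 90.9 and 93.9 (-3.9) and Hcrtr2, an orexin receptor, at 0.685 and 0.793 RPKM against 10.6 and 9.32 (-3.59). Of 25 peptide precursors, 8 were higher in DP and 4 in C-LTMR, and without DP replicate 1 the counts were 4 and 5. Neuromedin B (Nmb) was at 893 and 848 RPKM against 182 and 173 (2.29) and Grp, a related peptide, at 0.199 and 0.075 RPKM against 0.508 and 0.825. Grp lost its call without DP replicate 2 (adjusted p = 0.0619). Of 10 peptidergic and thermoreceptor markers tested, 3 were higher in DP and 1 in C-LTMR, and without DP replicate 1 the counts were 1 and 1. Among the 3, galanin (Gal, 47.1 and 33.7 RPKM against 9.99 and 10.1, 1.98) and Adcyap1 (18.6 and 14.8 RPKM against 7.99 and 7.37, 1.1) were higher in DP, both far under DN at 690.5 and 572 and 543 and 540.4 RPKM. Adcyap1 fell under a difference of 1 without DP replicate 1 (0.94).

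Of 23 receptors for lipids and nucleotides, 5 were higher in DP and 5 in C-LTMR, and among the 18 at 0.3 RPKM or more in both subsets 2 and 5. The lysophosphatidic acid receptors Lpar3 and Lpar5 were both higher in DP, and Lpar1 (7.94 and 10.9 RPKM against 5.53 and 10.6, 0.28) was not called. The cannabinoid receptor Cnr1 was at 2.65 and 2.63 RPKM against 0.165 and 0.234 (3.2), higher in DP. P2ry1 (7.04 and 8.97 RPKM against 116 and 119, -3.87) and P2ry2 (0.871 and 1.0 RPKM against 10.1 and 8.24, -3.16), receptors for ADP and UTP, and the adenosine receptor Adora2a (0.61 and 0.659 RPKM against 2.93 and 2.82, -2.02) were higher in C-LTMR. Of 59 orphan and adhesion receptors, 18 were higher in C-LTMR and 7 in DP. Gpr37 (0.697 and 0.757 RPKM against 7.65 and 8.5, -3.3) and Gpr162 (1.84 and 2.3 RPKM against 26.1 and 28.1, -3.65) were on the C-LTMR side and Gpr160 (12.2 and 11.3 RPKM against 1.24 and 0.863, 3.39) and Gpr83 (1.34 and 1.16 RPKM against 0.0649 and 0.0825, 2.95) on the DP side.

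Second messenger genes were evenly divided, 8 and 8 of 31 cyclases, phosphodiesterases and protein kinase C genes. The calcium-stimulated cyclases Adcy1 (0.343 and 0.443 RPKM against 5.4 and 5.35, -3.48) and Adcy8 (0.266 and 0.321 RPKM against 1.71 and 2.12, -2.35) and the calmodulin-dependent phosphodiesterases Pde1b (1.48 and 1.35 RPKM against 7.81 and 9.19, -2.5) and Pde1c (1.1 and 1.47 RPKM against 12.8 and 14.6, -3.32) were higher in C-LTMR. These 4 enzymes, which make or break down cyclic AMP under control of calcium, were each above DP in both libraries. Pde10a (4.78 and 5.04 RPKM against 0.177 and 0.248, 4.01), Pde8a (2.28 and 1.77 RPKM against 0.174 and 0.256, 2.75), Prkcq (113 and 111 RPKM against 1.87 and 1.58, 5.95) and Prkca (98.4 and 109.7 RPKM against 19.2 and 18.9, 2.44) were higher in DP. Among G protein beta and gamma subunits, Gnb4 went toward DP (107 and 101 RPKM against 11.2 and 8.6, 3.38) and Gnb3 and Gng4 (0.681 and 0.736 RPKM against 7.8 and 7.2, -3.23) toward C-LTMR.

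Secreted growth factors were called in both directions. Of 44 tested, 13 were higher in C-LTMR and 7 in DP, and after rescaling to pan-sensory-neuron genes 10 and 13. The neurotrophin Bdnf was higher in DP (19.9 and 22 RPKM against 5.52 and 4.36, 2.07), and the neurotrophin receptor Ngfr (8.1 and 9.49 RPKM against 55.7 and 62.3, -2.73) was higher in C-LTMR. The growth factors Pdgfa (47.7 and 50.2 RPKM against 46.6 and 56.1, -0.06) and Vegfb (70.4 and 67.6 RPKM against 63.9 and 66.5, 0.08) were not called. Wnt ligands were divided, Wnt2b (10.8 and 13.3 RPKM against 1.22 and 1.01, 3.32) and Wnt5a (5.02 and 6.61 RPKM against 1.66 and 1.9, 1.64) toward DP and Wnt11 toward C-LTMR, together with the Wnt receptor Fzd1 (1.15 and 1.41 RPKM against 6.64 and 8.89, -2.51).

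Genes of axon growth and synapses leaned toward C-LTMR. Semaphorins, netrins and ephrins steer axons, and their receptors are plexins, neuropilins and Eph kinases. Of 45 axon guidance genes tested, 18 were higher in C-LTMR and 5 in DP (median -0.75), and after rescaling to pan-sensory-neuron genes 13 and 8. Without single libraries the DP count ran from 3 to 8. The neuropilin Nrp1 was at 4.5 and 6.99 RPKM in DP and 71.9 and 95.3 in C-LTMR (log2 difference -3.86, SE 0.23, adjusted p = 0.000165). Sema3e was at 0.582 and 0.802 RPKM against 9.36 and 10.1 (-3.65), while its receptor Plxnd1 was higher in DP (13.9 and 15.5 RPKM against 3.41 and 3.8, 2.0). Likewise Sema7a was higher in C-LTMR (0.718 and 0.964 RPKM against 9.24 and 10.7, -3.43) and its receptor Plxnc1 in DP (74.7 and 77.2 RPKM against 25.3 and 26.3, 1.55). In these 2 pairs, picked out after their values were seen, the ligand was higher in C-LTMR and the receptor in DP.

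Of 46 synaptic adhesion and organizer genes, 18 were higher in C-LTMR and 4 in DP (median -0.72). C1ql4 (3.2 and 4.02 RPKM against 62.9 and 58.1, -4.04), the cerebellin Cbln2 (2.06 and 1.79 RPKM against 14.7 and 17.8, -3.01) and the neurexophilin Nxph3 (1.2 and 1.63 RPKM against 21.1 and 25.3, -3.95), all secreted partners of synaptic receptors, were higher in C-LTMR. Flrt3 (12.8 and 13.1 RPKM against 1.75 and 1.56, 2.9), Flrt2 (1.86 and 2.13 RPKM against 0.366 and 0.301, 2.27), Slitrk4 (3.47 and 3.56 RPKM against 1.15 and 0.582, 1.97) and Lrrtm3 (6.75 and 6.61 RPKM against 2.22 and 2.35, 1.51), the 4 higher in DP, are all leucine-rich repeat membrane proteins. Of 31 synaptotagmins and vesicle transporters, 11 were higher in C-LTMR and 2 in DP. Sv2a (3.06 and 3.86 RPKM against 35.5 and 45, -3.5) and Syt3 (0.238 and 0.549 RPKM against 4.09 and 4.37, -3.21) were among the 11, and Syt4 (244 and 271 RPKM against 82.8 and 75, 1.7) and Syt6 (29.3 and 27.6 RPKM against 4.33 and 4.92, 2.6) were the 2. Of 55 cadherins and protocadherins, 13 were higher in C-LTMR and 4 in DP, and 13 of these 17 were absent from the TMM-normalized table. Among the 41 at 0.3 RPKM or more in both subsets the counts were 6 and 2. Cdh7 was at 0.0425 and 0.0646 RPKM against 1.32 and 1.17 (-3.13), Cdh9 at 1.62 and 2.1 RPKM against 20.8 and 16.6 (-3.26), Cdh10 at 1.97 and 2.3 RPKM against 14.4 and 16.7 (-2.8) and Cdh8, on the DP side, at 2.2 and 2.48 RPKM against 0.265 and 0.558 (2.31).

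Transcription factors were called in both directions. Of 64 homeobox genes tested, 9 were higher in DP and 8 in C-LTMR, and 12 of these were absent from the TMM-normalized table. With a pseudocount of 1 the counts were 2 and 7, and among the 52 at 0.3 RPKM or more in both subsets they were 3 and 8. Nkx6-2 was at 1.39 and 1.32 RPKM in DP and 0.0352 and 0.0186 in C-LTMR (log2 difference 3.52, SE 0.20, adjusted p = 0.000142), Gbx1 at 1.61 and 1.71 RPKM against 0.115 and 0.21 (2.77) and Irx6 at 0.703 and 0.307 RPKM against 0.0614 and 0.013 (2.08), all higher in DP. Pou4f2, a POU homeobox gene, was higher in C-LTMR (5.2 and 5.67 RPKM against 40.2 and 43.8, -2.93), and the pan-sensory Isl1 (48 and 55.1 RPKM against 54.6 and 62.6, -0.18) was not called. Outside the homeobox class, Tbx3 was higher in C-LTMR (0.444 and 0.441 RPKM against 4.39 and 4.93, -3.13) and Bnc1 in DP (0.678 and 0.867 RPKM against 0.00627 and 0.0266, 2.9).

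Hox genes, whose paralog number follows their order along the body axis, were set apart after their values were seen, so they carry no test as a group. Of the 10 tested genes of paralogs 1 to 4 that are given here, 2 were higher in DP and 0 in C-LTMR, with a median difference of 0.21. Of 14 of paralogs 5 to 10, 0 were higher in DP and 3 in C-LTMR, with a median of -0.72, and 13 of the 14 had a difference under 0. The DP genes were Hoxa2 (1.15 and 1.01 RPKM against 0.209 and 0.328) and Hoxb3 (2.33 and 2.27 RPKM against 0.796 and 0.848). The C-LTMR genes were Hoxb6 (1.44 and 1.56 RPKM against 4.94 and 5.77), Hoxb7 (2.13 and 2.9 RPKM against 8.14 and 9.73) and Hoxd9 (0.781 and 0.77 RPKM against 3.65 and 3.29). The sources used here do not state which segments the ganglia came from, and their part in these differences was not tested.

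**Figure D4:**
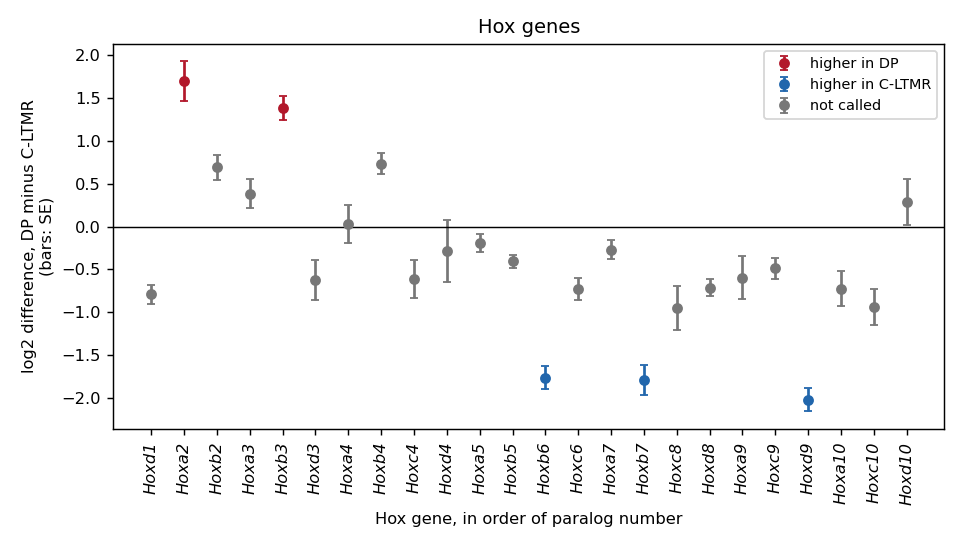
Difference between DP and C-LTMR (vertical, log2, DP minus C-LTMR, bars are SE of the fit over 4 libraries) of 24 Hox genes in order of paralog number (horizontal). The 2 genes called higher in DP have low paralog numbers, and 13 of the 14 genes of paralogs 5 to 10 lie below 0.

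The enzyme that makes the sugar epitope bound by IB4 followed the sort. Ggta1, alpha-1,3-galactosyltransferase, was at 16.2 and 14.7 RPKM in DP and 1.12 and 0.95 in C-LTMR (log2 difference 3.78, SE 0.13, adjusted p = 4.02e-05). Of 75 glycosyltransferases of surface glycans tested, 13 were higher in DP and 12 in C-LTMR, and with a pseudocount of 1 the counts were 6 and 9. Without DP replicate 1 they were 10 and 13, and without C-LTMR replicate 2 they were 12 and 15. Heparan sulfate sulfotransferases Hs3st3a1 (0.619 and 0.741 RPKM against 0.052 and 0.0235, 2.5), Hs3st3b1 (1.21 and 1.16 RPKM against 0.0973 and 0.154, 2.52) and Hs6st2 (81.1 and 80.8 RPKM against 13.1 and 11, 2.74) were higher in DP. The ganglioside synthase St3gal5 (1.66 and 2.27 RPKM against 16 and 16.5, -3.0) and A4galt (1.4 and 1.15 RPKM against 11 and 11.6, -3.06), which makes the globoside Gb3, were higher in C-LTMR.

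Extracellular matrix genes went toward DP in 19 of 55 cases and toward C-LTMR in 8. Without DP replicate 2 the counts were 11 and 8, with a pseudocount of 1 they were 9 and 6, and among the 39 at 0.3 RPKM or more in both subsets 9 and 5. Col3a1 (1.87 and 1.81 RPKM against 0.0601 and 0.181, 3.19), Mgp (1.45 and 2.48 RPKM against 0.082 and 0.0517, 3.59) and the neutrophil collagenase Mmp8 (1.88 and 2.03 RPKM against 0 and 0) were higher in DP, and Mmp17 (1.11 and 1.23 RPKM against 10.05 and 11.4, -3.09) and neurocan (Ncan, 0.229 and 0.357 RPKM against 2.38 and 2.99, -2.84) in C-LTMR. Of 13 tested markers of endothelial cells, pericytes and fibroblasts, 7 were higher in DP and 3 in C-LTMR, but among the 7 at 0.3 RPKM or more in both subsets the counts were 2 and 2. Acta2, smooth muscle actin (3.35 and 6.01 RPKM against 0.148 and 0.313), and Cldn5, of endothelial junctions (1.81 and 1.03 RPKM against 0.144 and 0.0875), were higher in DP, far under DN at 20.2 and 32.2 and 127 and 217 RPKM. The summed level of that list's 26 genes was 38.5 and 40.3 RPKM in DP, 94.1 and 99.8 in C-LTMR and 774 and 1242 in DN. The C-LTMR sum was mostly Rgs5, a pericyte marker, at 6.42 and 6.85 RPKM against 79.5 and 82.3 (-3.59). The part of these cells in the matrix genes was not tested. Serping1, the inhibitor of complement C1, was at 308 and 273 RPKM in DP and 5.17 and 6.35 in C-LTMR (log2 difference 5.64, SE 0.12, adjusted p = 2.78e-05), and Serpina11 at 20.5 and 18.8 RPKM against 1.04 and 1.12 (4.06).

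Of 18 glial genes tested, 3 were higher in C-LTMR and 2 in DP, and after rescaling to pan-sensory-neuron genes 2 and 4. Without C-LTMR replicate 1 the counts were 7 and 2, and without C-LTMR replicate 2 they were 3 and 5. The myelin genes Mbp (22.4 and 28.5 RPKM against 141 and 125) and Pmp22 (521 and 483 RPKM against 1203 and 1166) were higher in C-LTMR, and Pmp22 lost its call under that rescaling. The satellite glia genes Fabp7 (136 and 258 RPKM against 195 and 440.4) and Apoe (499 and 871 RPKM against 763 and 1449.7) differed more between replicates than between subsets and were not called. Red blood cell and heme genes were higher in C-LTMR for 4 of 7 tested, among them Alas2, the first enzyme of erythroid heme synthesis (2.89 and 3.53 RPKM against 21.3 and 23.8, -2.78). Of 37 immediate early, stress and injury genes, 12 were higher in DP and 2 in C-LTMR, and after the same rescaling 19 and 1. Npas4 (3.14 and 2.49 RPKM against 0.327 and 0.265, 2.88) and Egr4 (1.79 and 2.09 RPKM against 0.292 and 0.457, 2.12), which neurons induce on activity, were higher in DP, and Gap43 was higher in C-LTMR (83.7 and 64 RPKM against 178 and 165, -1.23) but lost its call under that rescaling. Fos (583 and 559 RPKM against 325 and 394, 0.67) was not called. The sources used here do not state the time from dissection to lysis, and its part was not tested.

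**Figure D5:**
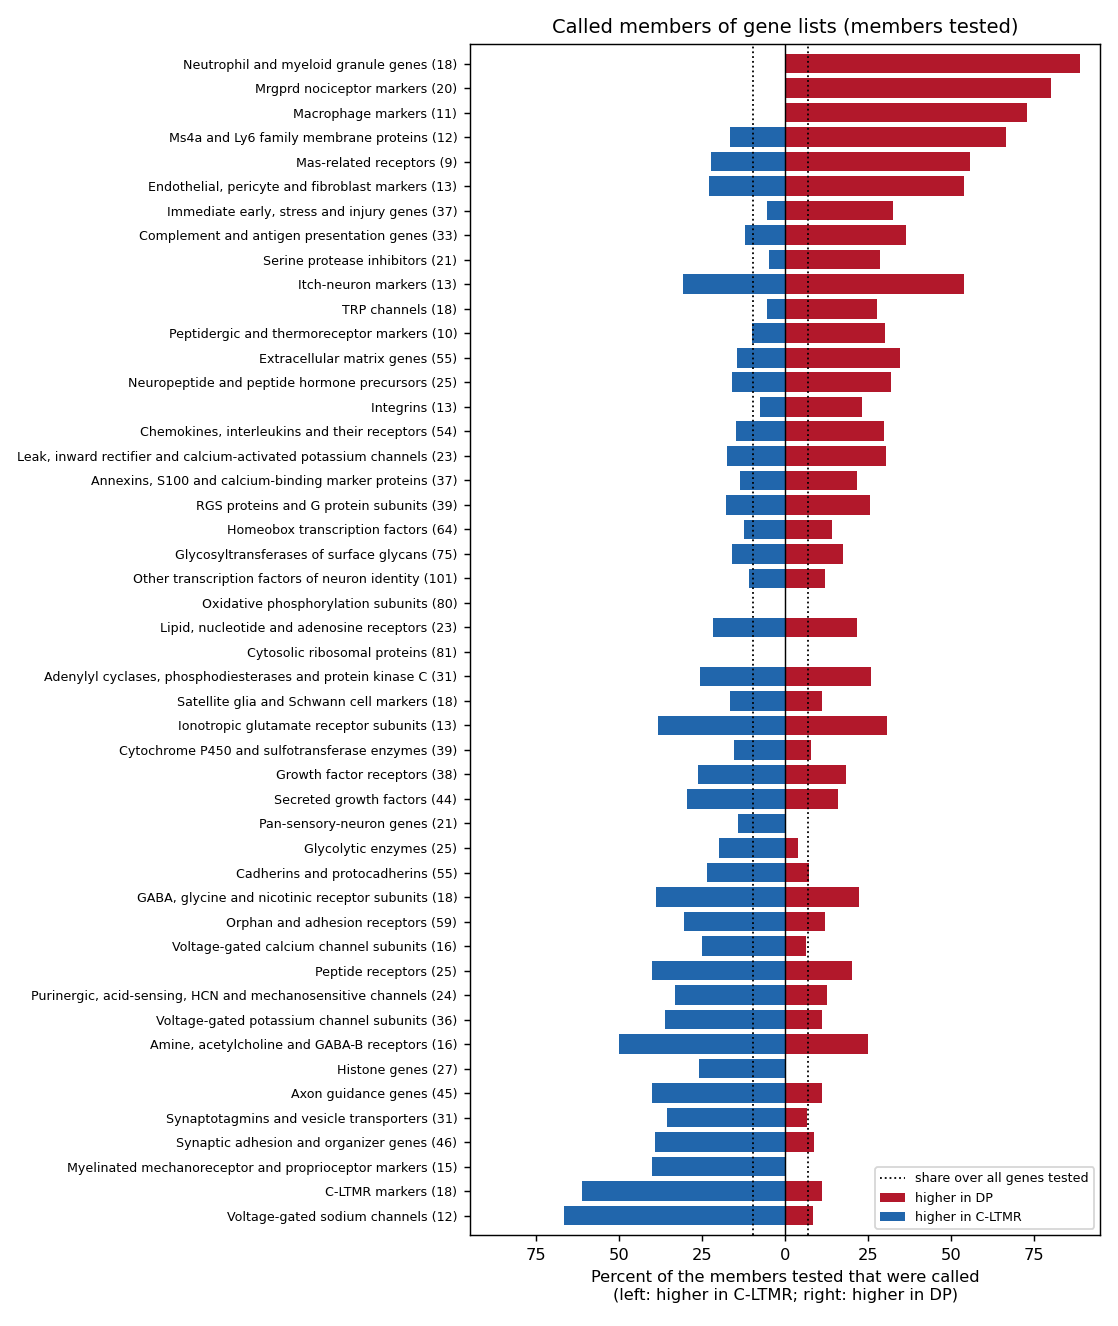
Percent of the tested members of each gene list called higher in DP (red, right) or higher in C-LTMR (blue, left), with the number tested in parentheses. Dotted lines mark 6.91% and 9.59%, the shares over all genes tested, and lists are ordered by the net share.

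Housekeeping groups gave no calls. By limma, 0 of 81 cytosolic ribosomal protein genes and 0 of 80 oxidative phosphorylation subunits were called, with median differences of 0.17 and -0.11. At an unadjusted p under 0.05, with no minimum size, 18 of the former and 25 of the latter passed, and their largest absolute differences were 0.65 and 1.11. At an adjusted p under 0.05, again with no minimum size, 9 and 19 passed, beside 41.1% of all genes tested. Of 872 genes at a mean of 100 RPKM or more, 44 were called higher in DP and 33 in C-LTMR (8.83%). Several of the abundant genes given next were picked because they were not called, so their likeness carries no support. Tppp3, a tubulin-binding protein, was at 3992 and 4115 RPKM in DP and 4109 and 4192 in C-LTMR (log2 difference -0.03, SE 0.09, adjusted p = 0.792), and Fxyd2, a regulator of the sodium pump, at 2691 and 2770.0 RPKM against 2524 and 2869.6 (0.02). Peripherin (Prph), the intermediate filament of small neurons, was at 2684 and 2648 RPKM against 2613 and 2282 (0.13), and Tmsb4x, thymosin beta 4, at 5737 and 6373 RPKM against 5371 and 6878 (-0.01). Gamma-synuclein (Sncg) had the highest level in DP, at 8765 and 8508 RPKM against 5658 and 5819, and was not called (0.59). S100a6, a calcium-binding protein, was the one among the 5 most abundant genes of DP that was called (3597 and 3563 RPKM against 1427 and 1372, log2 difference 1.35, SE 0.081, adjusted p = 0.000162). Of 25 glycolytic enzymes, 5 were higher in C-LTMR and 1 in DP, and after rescaling to pan-sensory-neuron genes 2 and 1. The neuronal enolase Eno2 was at 30.01 and 30.5 RPKM in DP and 267 and 247 in C-LTMR (log2 difference -3.08, SE 0.066, adjusted p = 2.78e-05), while the aldolase Aldoc was higher in DP (205 and 189.6 RPKM against 54.8 and 56.9, 1.82) and lactate dehydrogenase Ldha was not called (535 and 513 RPKM against 513 and 524, 0.02).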

How the data were processed

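RNA was measured in 6 libraries of cells sorted from mouse DRG, of which the 2 DP and 2 C-LTMR libraries were compared and the 2 DN libraries gave reference levels. The deposited RPKM table lists 23029 genes, each value a count of reads per kilobase and per M reads made by the authors. The deposited TMM-normalized counts are a normalized signal brought by the authors to a common library size, and served to mark which genes that table holds and as an alternative. Per the submitters' processing notes, CASAVA 1.8.2, edgeR 2.6.2 and the build GRCm38 (mm10) were used. The sources used here name no aligner or gene annotation and do not say whether counting used the strand, so reads of overlapping or antisense genes cannot be told apart. RPKM values share a library's total, so a rise in some genes lowers the others.

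Here log2(RPKM + 0.1) of the 4 libraries was fitted with limma 3.58.1 in R 4.3.3 (lmFit, contrasts.fit, eBayes with a trend) for genes at 0.3 RPKM or more in both libraries of a subset. The fit had 2 residual degrees of freedom and a median prior of 3.53. An exact permutation test of 2 against 2 libraries cannot go below p = 0.333 and was not used. No count model was fitted, since whole reads were not recovered from the RPKM values. The scripts were tested on simulated data. Differences understate the change of low genes because of the added 0.1, and floors of 3 reads per kilobase stand for 0.0714 to 0.093 RPKM, counting error only. Python 3.11.15 with pandas 2.3.3, numpy 2.4.6 and matplotlib 3.10.9 made tables and figures.

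Genes and the 52 lists were chosen with earlier results of these data known, and a few genes are not reported here. Named were the 4 markers, the 12 largest called differences each way over all genes and over genes absent from the TMM-normalized table, the 8 uncalled genes of highest level with a difference under 0.5, the 5 most abundant genes of each subset, and of each list up to 4 called members each way and up to 3 uncalled ones. Alternatives were other pseudocounts, filters, scalings and variance settings, all 6 libraries, a replicate block and leaving out each library.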

Additional observations from a re-analysis of the deposited data

How the results depend on the processing

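The counts of 887 genes higher in DP, 1232 higher in C-LTMR and 1272 called among genes absent from the TMM-normalized table stayed within 1.5 times under every alternative run except 2. With a pseudocount of 1 they were 468, 736 and 485, which follows from the smaller differences that a larger pseudocount gives to low genes, and the counts of many gene lists fell likewise. With a filter of at least 1 RPKM the last count was 803, with fewer genes tested (11034). Leaving out each library in turn gave 745 to 961 genes higher in DP, 1170 to 1294 higher in C-LTMR and 1133 to 1321 among genes absent from the TMM-normalized table. There the lone library of a subset is assumed to vary like the other subset. Of the 2119 calls, 1685 (79.5%) were kept without each of the 4 libraries, and 0 reversed under any alternative. The fold of 28 called genes moved by over 1.5 times without a library, among them S100a9, S100a8, Lyz2, Elane, Anxa1, Mrgprx1, Nts, Sst and Rgs11. With all 6 libraries in the fit Gabrb2 and Sst were not called, and without a filter or without a trend Nts was not. Of the main calls that the TMM-normalized table holds, 818 of 847 were called there too.

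With the replicate number as a block, 903 genes were higher in DP and 1260 in C-LTMR, and 1308 were called among genes absent from the TMM-normalized table. Deviations of same-numbered DP and C-LTMR libraries correlated with r = 0.40 across genes. The submitters' names of all replicate 2 libraries end in bis, but the labels do not say what that stands for. Whether same-numbered libraries share a batch was not tested, and there are only 2 pairs.

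Depth limits genes near 0.3 RPKM, which rest on about 10 reads per kilobase, and 2 libraries per subset limit every p-value.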

Other observations

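Long noncoding RNAs were a group that the TMM-normalized table leaves out almost entirely. Of 363 genes with the RefSeq biotype lncRNA that were tested, 336 were absent from that table. Of the 363, 49 were called higher in C-LTMR and 17 higher in DP (18.2% called, against 16.5% of all genes). Among all tested genes absent from that table, 20.3% were called, so the share of lncRNAs called was not above that of such genes. Gm13446 was at 0.264 and 0.323 RPKM against 5.96 and 6.27, the largest of these differences. AI504432 was at 0.120 and 0.282 RPKM in DP and 2.83 and 3.34 in C-LTMR. On the DP side 9430021M05Rik was at 31.9 and 34.4 RPKM in DP and 6.30 and 6.43 in C-LTMR, and F830002L21Rik at 0.738 and 0.640 against 0.0160 and 0.0338. The libraries of the subsets did not overlap for these 4 genes. Whether reads of a noncoding gene came from an overlapping gene on the other strand was not tested.

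Of 27 histone genes tested, 7 were higher in C-LTMR and 0 in DP (25.9% called, against 16.5% of all genes), with a median difference of -0.56. Hist1h2be was at 1.85 and 1.42 RPKM against 8.49 and 7.06 and the linker histone H1fx at 0.917 and 1.06 RPKM against 2.89 and 3.08. The replication-dependent histone genes have near-identical copies. Of 12 tested genes of the Ms4a and Ly6 membrane protein families, 8 were higher in DP and 2 in C-LTMR (83.3% called, against 16.5% of all genes). Only 6 of the 12 reached 0.3 RPKM in both subsets, and among these the counts were 2 and 2. Lypd6, a modulator of nicotinic receptors, was at 4.81 and 4.31 RPKM against 0.303 and 0.33 and Ly6c1, an endothelial and leukocyte antigen that was not called with a pseudocount of 1, at 1.61 and 0.784 RPKM against 0.136 and 0.0617, while Ly6h was at 2.48 and 4.38 RPKM against 35.2 and 38.3 on the C-LTMR side.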
